A study of Mus musculus with 80 samples.

Results

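The Cyp2c family is a group of mouse cytochrome P450 enzymes of the endoplasmic reticulum whose genes lie mostly in 1 cluster on chromosome 19. Its members were taken as every entry of the deposited liver array table whose gene symbol begins with Cyp2c, which gave 11 of 18138 entries: Cyp2c29, Cyp2c37, Cyp2c38, Cyp2c39, Cyp2c40, Cyp2c50, Cyp2c55, Cyp2c65, Cyp2c67, Cyp2c68 and Cyp2c70. Each has 1 entry. Cyp2c44 and Cyp2c54 are not analysed here. The livers came from male B6C3F1 mice, a hybrid strain, and 80 Illumina bead arrays covered 19 groups. Ethinyl estradiol (EE2), a synthetic estrogen, was given in feed for 7 d at 1 ppm, 2.5 ppm, 5 ppm or 10 ppm and at 10 ppm for 28 d. Prednisone (PRED), a prodrug of the glucocorticoid prednisolone, was given in feed at 1.25, 2.5, 5 or 25 ppm for 7 d and at 25 ppm for 28 d. Androstenedione (A4), a steroid precursor of testosterone and estrone, was given by gavage in carboxymethyl cellulose at 2, 10, 20 or 50 mg/kg/day for 7 d and at 50 mg/kg/day for 28 d. Each dosed group has 4 arrays. The feed controls, on diet with 0 ppm, have 6 arrays at 7 d and 6 at 28 d, and the gavage controls, on vehicle, have 4 at each time. The animals' ages, and whether each array holds the RNA of 1 animal, are not given in the sources used here, so p-values measure the spread between these samples, part of which may be technical.

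Cyp2c enzymes oxidise arachidonic acid to epoxyeicosatrienoic and hydroxyeicosatetraenoic acids, which act on vessels and inflammation, and they also oxidise drugs, steroids and retinoids. They draw electrons from cytochrome P450 oxidoreductase, and epoxide hydrolases remove the epoxides they make. In mouse liver several Cyp2c genes differ between the sexes, a difference set by the pattern of growth hormone release, and others are induced through the nuclear receptors CAR and PXR. HNF4, a hepatocyte transcription factor, binds elements close to the start of many Cyp2c genes.

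RefSeq (GRCm38.p6) gives a promoter window of 250 bases before and 50 bases after the start for 11 of 11 members, and 2 starts for Cyp2c39, so that there are 12 windows. The 250 bases before each start are shown for the 5 members that the results turn on most. The likeness of Cyp2c37 to Cyp2c50, and the HNF4-like element in every window shown but that of Cyp2c50, can be read from them. Capitals mark a match to the HNF4-like sequence CAAAGTCNA, where N is any base.
Cyp2c37, chr19:39992174-39992423, plus strand: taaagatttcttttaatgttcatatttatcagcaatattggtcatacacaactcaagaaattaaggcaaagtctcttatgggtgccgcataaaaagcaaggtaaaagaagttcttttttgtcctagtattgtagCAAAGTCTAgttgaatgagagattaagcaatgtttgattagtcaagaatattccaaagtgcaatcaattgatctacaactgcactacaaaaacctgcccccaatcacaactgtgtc
Cyp2c50, chr19:40089429-40089678, plus strand: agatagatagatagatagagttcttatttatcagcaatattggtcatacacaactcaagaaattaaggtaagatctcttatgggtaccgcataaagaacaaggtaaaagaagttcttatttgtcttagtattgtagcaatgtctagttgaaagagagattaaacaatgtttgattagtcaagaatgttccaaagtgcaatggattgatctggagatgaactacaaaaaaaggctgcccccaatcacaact
Cyp2c39, start 1, chr19:39347096-39347345, plus strand: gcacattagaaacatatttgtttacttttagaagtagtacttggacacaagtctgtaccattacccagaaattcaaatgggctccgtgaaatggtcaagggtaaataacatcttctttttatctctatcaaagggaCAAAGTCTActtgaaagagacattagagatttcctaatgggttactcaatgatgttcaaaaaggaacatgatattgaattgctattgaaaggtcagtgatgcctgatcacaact
Cyp2c39, start 2, chr19:39510572-39510821, plus strand: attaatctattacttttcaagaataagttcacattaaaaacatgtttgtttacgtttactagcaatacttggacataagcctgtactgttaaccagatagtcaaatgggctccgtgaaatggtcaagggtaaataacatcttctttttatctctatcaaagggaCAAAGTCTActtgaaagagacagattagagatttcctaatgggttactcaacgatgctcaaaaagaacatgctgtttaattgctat
Cyp2c67, chr19:39649043-39649292, minus strand: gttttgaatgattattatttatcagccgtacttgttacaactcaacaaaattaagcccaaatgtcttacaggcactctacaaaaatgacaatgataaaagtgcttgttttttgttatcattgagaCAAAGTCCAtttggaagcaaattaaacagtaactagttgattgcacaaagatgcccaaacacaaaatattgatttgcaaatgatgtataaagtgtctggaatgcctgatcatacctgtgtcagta
Cyp2c70, chr19:40187287-40187536, minus strand: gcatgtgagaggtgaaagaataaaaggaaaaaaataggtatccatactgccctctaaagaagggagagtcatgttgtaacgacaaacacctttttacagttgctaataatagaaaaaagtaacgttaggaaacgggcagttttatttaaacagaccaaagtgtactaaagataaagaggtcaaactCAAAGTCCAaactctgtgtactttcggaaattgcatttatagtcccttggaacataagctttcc

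Searched on both strands of the 300 bases, CAAAGTCNA was found in 8 of the 11 members, against 1.04% of all 32851 promoters of the same length. Cyp2c38, Cyp2c50 and Cyp2c55 had no match. TATAAA was also found in 8 members, against 13.6% of all promoters. The estrogen half-site AGGTCA was found in 3 members (Cyp2c29, Cyp2c39 at start 1 and Cyp2c70), against 16.3%, and the whole estrogen element, GGTCA and TGACC with any 3 bases between them, in 0 members, against 0.07%. The glucocorticoid core ACANNNTGT was found in 3 members (Cyp2c38, Cyp2c39 at start 2 and Cyp2c68), against 6.85%. The STAT5 sequence TTCNNNGAA was found in 0 members, against 8.3%, and the C/EBP sequence TTGCGCAA in 0 members, against 0.183%. These matches are letters in a window and not shown sites. Over the 66 pairs of windows the aligned identity ran between 43.6% and 86.6%, with a median of 51.3%. The highest was that of Cyp2c37 with Cyp2c50, which have 264 identical letters in 305 aligned columns. The Cyp2c38 window with Cyp2c39 start 1 had the next highest identity, 78.1%.

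Levels are fluorescence intensities on a linear scale, and no background subtraction was visible: array medians were 105.7 to 106.4. Between 7743 and 9328 entries per array had a deposited detection p under 0.05, called detected here, and the number of arrays limits the precision. Changes are differences of log2(intensity + 16) from 1 limma model of all 19 groups, with Benjamini-Hochberg adjustment over the 11352 genes detected on at least 4 arrays and a threshold of 0.05. The added constant and the undetected background make a fold change on this scale smaller than it would be above background, most of all for low genes. The arrays were run on 10 chips of 8 arrays, each holding 6 to 8 groups. Array 3 of EE2 5 ppm had the lowest correlation with the rest of its own group, 0.954.

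Of the 11 members, 6 were tested: Cyp2c37 was detected on 76 of 80 arrays, Cyp2c39 on 67, Cyp2c50 on 58, Cyp2c55 on 56, and Cyp2c67 and Cyp2c70 on 80 each. Cyp2c38, Cyp2c40, Cyp2c65 and Cyp2c68 were detected on 0 of 80 arrays, with intensities of 89.9 to 106.9. Their medians over the arrays were 95.1 to 99.8, below the array medians. Cyp2c29, an epoxygenase of arachidonic acid, was detected on 3 of 80 arrays and was not tested. Its group means lay between 101 and 212, the highest in A4 50 mg/kg/day at 28 d, where its 4 arrays read 152.4 to 279. None of those arrays was detected. The median rank of Cyp2c29 over the arrays was 6815 of 18138 entries, beside 6821 for Cyp2c39. The deposited detection p thus did not follow the Cyp2c29 signal, and few detected arrays do not show that this gene was at background. In PRED 25 ppm livers at 28 d the arrays read 102.3, 111.6, 106.2 and 97.22, against 124.3, 149.6 and 153.3 at the lowest, median and highest feed control, so that the groups did not overlap. Such a separation downwards was seen for 7.42% of all genes tested. In a limma fit with no detection filter the Cyp2c29 change between these groups was -0.40 (adjusted p = 0.042). Neither group had a detected array, and no fold is given. In the same fit the A4 change at 28 d was 0.60, with 212.2 in A4 livers and 131.9 in gavage controls on average (unadjusted p = 4.68e-05, adjusted p = 0.539).

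Under EE2 the tested members split. Cyp2c39 was higher and Cyp2c67 lower than in feed controls at every dose and at both times, and the paired genes Cyp2c37 and Cyp2c50 were lower at 10 ppm. Cyp2c55 and Cyp2c70 passed the threshold in no comparison of an EE2 group with its control. PRED changed Cyp2c67 and Cyp2c55 at 25 ppm, and under A4 none of the 6 passed. In whole-liver RNA, fewer cells of a type and less RNA per cell cannot be told apart. In EE2 7 d livers, 2 of the 6 tested members passed the threshold at 1, at 2.5 and at 5 ppm, and 4 of 6 at 10 ppm. Over all genes tested, 13.3% passed at 1 ppm, 14.6% at 2.5 ppm, 24.4% at 5 ppm and 33.3% at 10 ppm, in either direction.

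**Figure D1:**
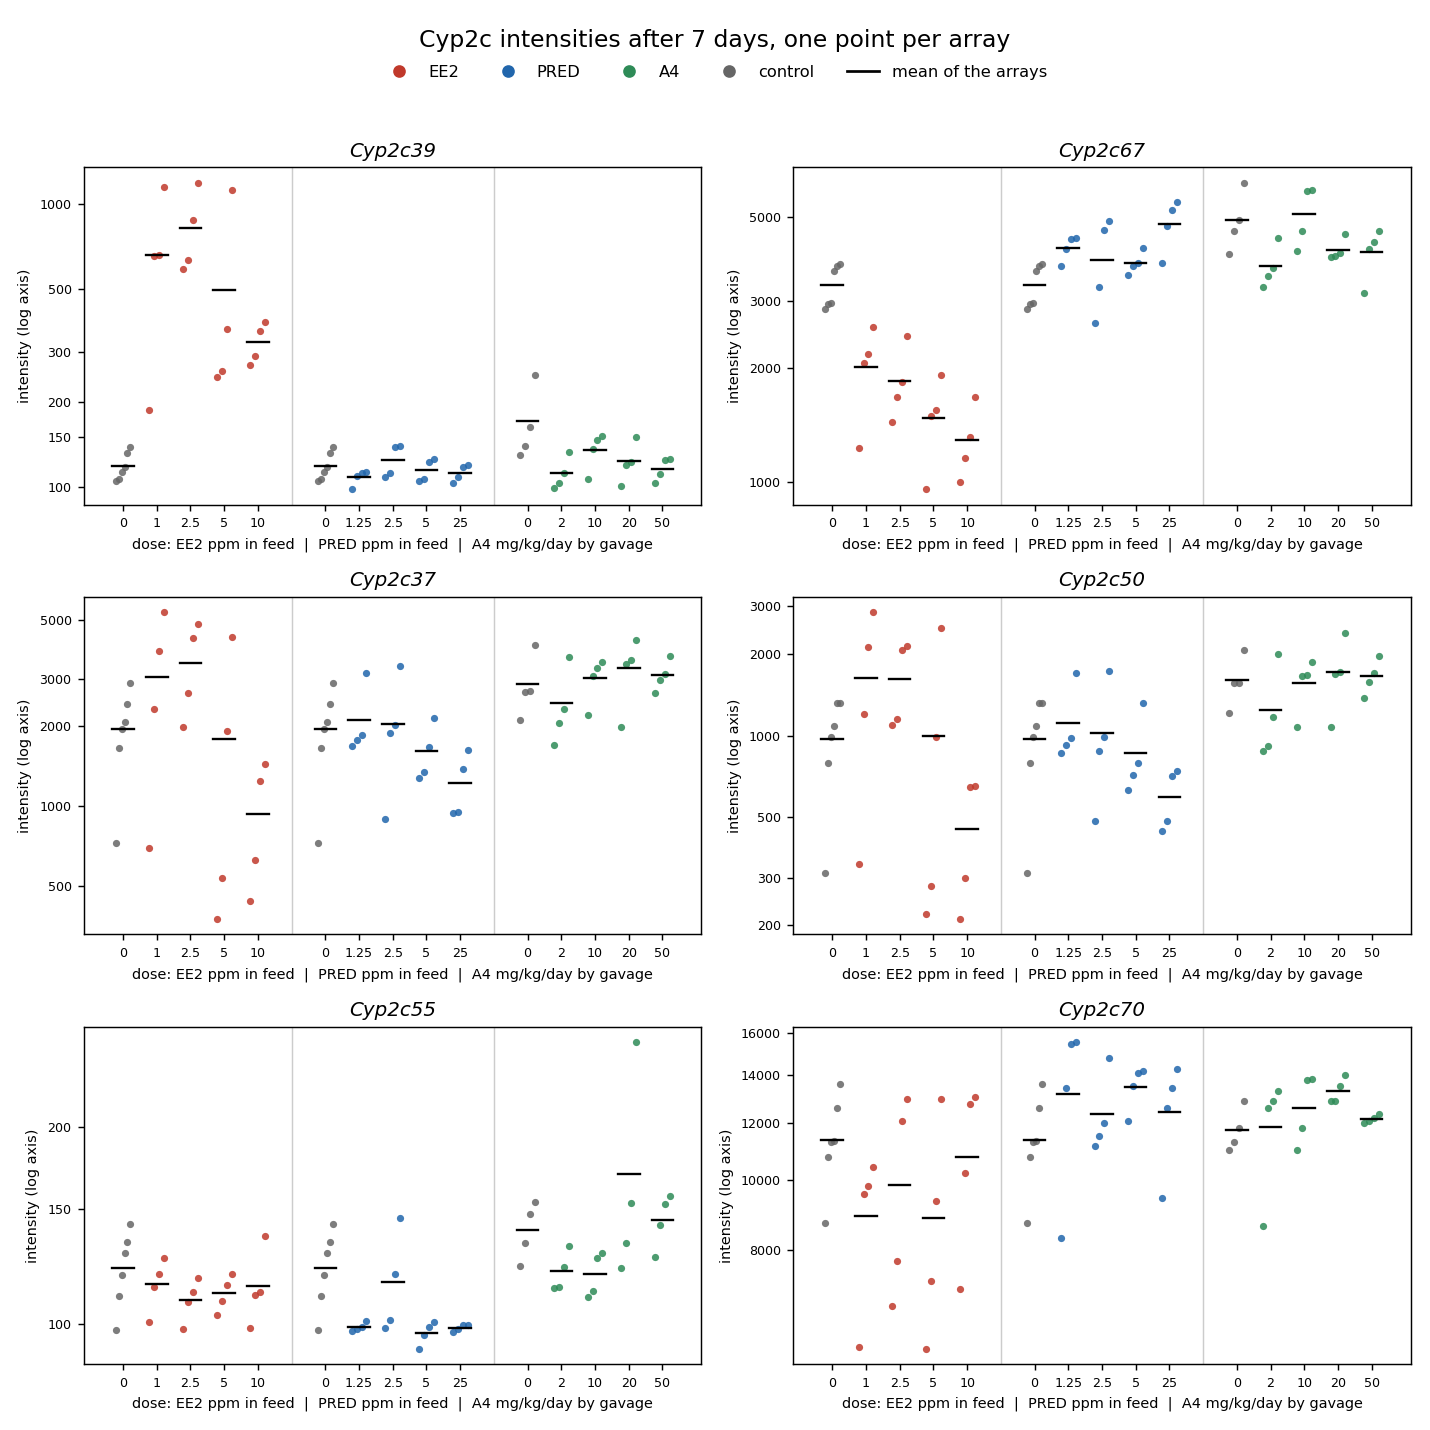
Intensity (linear units on a log axis) of the 6 tested members on every array at 7 d, by dose, with EE2 and PRED in ppm, A4 in mg/kg/day, and 0 for the feed or gavage controls. Points are arrays and black lines are group means. Every EE2 array of Cyp2c39 is above the feed controls, which reach 138.8, and every EE2 array of Cyp2c67 is below them, the lowest control being 2861.

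Cyp2c39, which hydroxylates retinoic acid and oxidises arachidonic acid, was near background in feed controls and several-fold higher under EE2. In the 7 d feed controls its intensity was 105.7 at the lowest, 113.8 and 118.2 on the arrays either side of the median and 138.8 at the highest, and its mean was 119 ± 13.6 (SD, n = 6). EE2 at 1 ppm gave 659, 1141, 187 and 653. The 2.5 ppm arrays read 1183, 590, 635 and 877. At 5 ppm they read 362, 1119.5, 257 and 244, and at 10 ppm 271, 382, 290 and 357. Every EE2 array was above every control array at each dose, which was the case for 3.01%, 5.53%, 5.66% and 9.18% of all genes tested at 1, 2.5, 5 and 10 ppm. The array-to-array spread was widest at 1 and 5 ppm, where single arrays differed several-fold, and the 10 ppm arrays lay close together. The change was 2.08 at 1 ppm, 2.58 at 2.5 ppm, 1.63 at 5 ppm and 1.33 at 10 ppm, each with a standard error of 0.24 on the log2 scale. The adjusted p-values by limma were 1.87e-09, 6.53e-13, 3.18e-07 and 1.38e-05 in that order of doses. On the scale with the added constant these are 4.24-, 5.98-, 3.1- and 2.51-fold. The level was thus highest at 2.5 ppm, and the direct difference of 10 ppm minus 1 ppm, a change of -0.76, had an adjusted p of 0.0513. Its side of the threshold depended on single arrays and on settings. It passed without array 3 of 1 ppm, which read 187 (-1.25, adjusted p = 0.000131), and without array 2 of 10 ppm (-0.84, adjusted p = 0.0335). Without array 2 of 1 ppm it was -0.42 (adjusted p = 0.442). It also passed under 5 other settings, with adjusted p of 0.0401 to 0.0491: a larger added constant, either stricter detection filter, robust moderation and repeated quantile normalization. Within the 2 chips that held both groups, the changes were 2.13 to 2.17 at 1 ppm, 2.18 to 3.30 at 2.5 ppm, 1.49 to 1.85 at 5 ppm and 1.22 to 1.57 at 10 ppm. Within-chip changes, here and below, set 1 or 2 dosed arrays against 1 or 2 control arrays, mostly 1 against 1. They carry no measure of spread.

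Cyp2c67, for whose product no role is given here, moved the other way. Feed controls at 7 d read 2861 at the lowest, 3285 at the median and 3756 at the highest, with a mean of 3307 ± 423 (SD, n = 6). EE2 livers at 1 ppm read 2172, 2569, 1233 and 2055, and at 2.5 ppm 2428, 1443, 1676.5 and 1837. At 5 ppm the arrays read 1552, 1911, 957 and 1490, and at 10 ppm 998, 1680, 1158 and 1316. No EE2 array reached the lowest control array, a separation seen downwards for 5.23%, 5.73%, 6.31% and 9.61% of all genes tested at the 4 doses, low to high. The group mean was lower at each higher dose. Relative to control, Cyp2c67 fell by 0.76 at 1 ppm, 0.85 at 2.5 ppm, 1.19 at 5 ppm and 1.37 at 10 ppm on the log2 scale, with a standard error of 0.17 (adjusted p = 0.00106, 0.000136, 1.15e-07 and 1.74e-09 by limma). Within chips the changes were -0.85 to -0.79, -1.03 to -0.28, -1.46 to -0.93 and -1.50 to -0.82 at the 4 doses. Cyp2c67 was lower at 10 ppm than at 1 ppm by a change of -0.61 (adjusted p = 0.0226). This last call was lost without any one of arrays 1 and 3 of 10 ppm or arrays 1, 2 and 4 of 1 ppm.

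Cyp2c37 and Cyp2c50, whose mouse enzymes form hydroxyeicosatetraenoic acids and epoxides of arachidonic acid, moved as a pair. Feed controls at 7 d read 729, 2010 and 2900 for Cyp2c37 at the lowest, median and highest array. EE2 at 1 ppm gave Cyp2c37 intensities of 2308, 5335, 695 and 3828, and 2.5 ppm gave 4843, 2654, 1984 and 4286. At 5 ppm the arrays read 1909.5, 4299, 539 and 377, and at 10 ppm 440, 1240.5, 1439 and 626. The groups overlapped at every dose, with some arrays of 1, 2.5 and 5 ppm above the highest control and some arrays of 1, 5 and 10 ppm below the lowest. For Cyp2c50 the 7 d feed controls read 311 at the lowest, 1036 at the median and 1324.5 at the highest. Its arrays read 1198, 2843, 336 and 2118 at 1 ppm and 2070, 1090, 1155 and 2134 at 2.5 ppm. They read 991, 2488, 280 and 221 at 5 ppm and 211, 647.5, 650 and 300 at 10 ppm. The order of arrays was close to that of Cyp2c37. Neither gene passed the threshold at 1, 2.5 or 5 ppm: the Cyp2c37 changes were 0.41, 0.84 and -0.65 (adjusted p = 0.571, 0.181 and 0.267), and those of Cyp2c50 were 0.50, 0.79 and -0.47 (adjusted p = 0.482, 0.226 and 0.456). With a standard error of 0.42, the 95% confidence interval of the Cyp2c37 change at 1 ppm ran between -0.42 and 1.24.

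At 10 ppm both genes were lower than in feed controls, each by a change of -1.09 (adjusted p by limma = 0.0358 for Cyp2c37 and 0.041 for Cyp2c50). Within the 2 chips that held both groups the Cyp2c37 change was -1.88 and -1.22, and the Cyp2c50 change was -1.83 and -1.01. Each of these calls was lost without array 1 or 4 of the 10 ppm group or without feed control array 3, 4, 5 or 6, with adjusted p up to 0.186 for Cyp2c37 and 0.195 for Cyp2c50. Each was also lost with the chip as a block (adjusted p = 0.0691 and 0.051). Conversely, at 5 ppm both became lower past the threshold without array 2 of that group, at -1.28 for Cyp2c37 (adjusted p = 0.0156) and -1.12 for Cyp2c50 (adjusted p = 0.0424). Between doses, 3 of 6 members passed the threshold, all lower at 10 ppm than at 1 ppm: Cyp2c37 by -1.50 (adjusted p = 0.0238), Cyp2c50 by -1.59 (adjusted p = 0.019) and Cyp2c67 as above, against 10.7% of all genes tested in either direction. The calls of Cyp2c37 and Cyp2c50 were lost without array 1 or 4 of 10 ppm, or array 2 or 4 of 1 ppm.

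**Figure D2:**
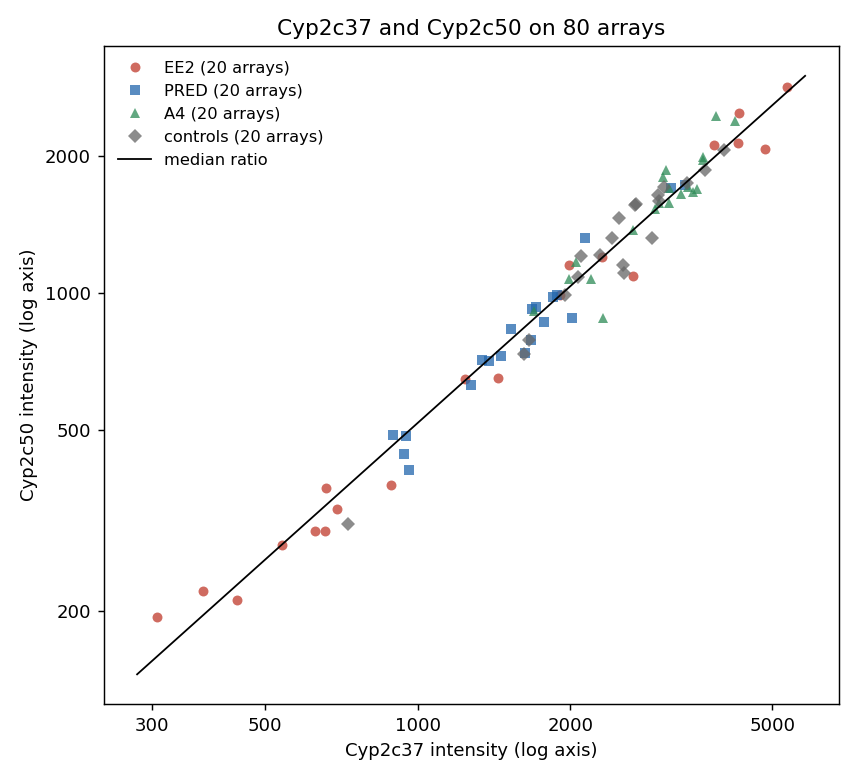
Cyp2c50 intensity against Cyp2c37 intensity, both on log axes, for the 80 arrays, 20 each of EE2, PRED, A4 and controls, with a line at the median Cyp2c37 to Cyp2c50 ratio of 1.93. The points follow the line over the whole range, and the ratio stays between 1.57 and 2.63.

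The likeness of the 2 genes held array by array. Over the 80 arrays their log2 values had a Pearson r of 0.987, over the 19 group means 0.996, and over deviations from the group means 0.98. The ratio of Cyp2c37 to Cyp2c50 intensity lay between 1.57 and 2.63 on all arrays, with a median of 1.93. This ratio of 2 probes is not a ratio of RNA amounts. The points share their arrays and normalization, so these r are descriptions. The residual SD on the log2 scale was 0.65 for Cyp2c37 and 0.67 for Cyp2c50, the widest of the 6, against 0.38 for Cyp2c39, 0.26 for Cyp2c67 and Cyp2c70 and 0.17 for Cyp2c55. The 2 genes are close relatives that lie near each other with Cyp2c54 in the reference gene order, and their promoter windows above are the most alike of all pairs. The probe sequences are not used here, and how far each probe also binds its relatives' RNA was not tested.

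The EE2 trend over the 7 d doses, scored 0 to 4, passed the threshold for 4 of the 6 members, against 33.9% of all genes tested. Per dose step Cyp2c67 fell by 0.32 (adjusted p = 1.03e-09), Cyp2c37 by 0.32 (adjusted p = 0.00557) and Cyp2c50 by 0.32 (adjusted p = 0.00858), and Cyp2c39 rose by 0.22 (adjusted p = 0.00118). The steps were not even: the mean intensity of Cyp2c37 and Cyp2c39 was highest at 2.5 ppm, that of Cyp2c50 at 1 ppm, and that of Cyp2c67 was lower at each higher dose. The call of Cyp2c50 was lost without array 1 of 10 ppm (adjusted p = 0.0507). When the fit held no other groups, the calls of Cyp2c37, Cyp2c39 and Cyp2c50 were lost (adjusted p = 0.117, 0.0939 and 0.134).

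Cyp2c70, the enzyme that makes muricholic acids in mouse liver, showed no change past the threshold under EE2. Feed controls at 7 d read 8719, 11321 and 13573.5 at the lowest, median and highest array. EE2 at 1 ppm gave 10448, 5878, 9817 and 9584, and 2.5 ppm gave 6692, 12077.5, 12958.5 and 7737. The 5 ppm arrays read 9365, 5848, 12958.5 and 7254, and the 10 ppm arrays 13041, 7079.5, 12769 and 10247. At each dose at least 1 array lay below all controls and at least 1 within their range. The change nearest the threshold was -0.41 at 5 ppm (adjusted p = 0.0635, 95% confidence interval -0.75 to -0.08). It passed without EE2 array 3 (-0.62, adjusted p = 0.00655), without feed control array 2 (-0.49, adjusted p = 0.034) and with quantile normalization repeated (-0.45, adjusted p = 0.0402). Its intensities near the top of the scale take few distinct values, 54 on 80 arrays, so that neighbouring arrays can carry the same number.

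Cyp2c55, which hydroxylates arachidonic acid and is inducible through CAR and PXR, was low everywhere. None of its EE2 changes at 7 d passed the threshold, and that at 10 ppm was -0.08 (adjusted p = 0.619).

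At 1, 2.5 and 5 ppm of EE2, the arrays highest in Cyp2c37, Cyp2c39 and Cyp2c50, which were array 2 of 1 ppm, arrays 1 and 4 of 2.5 ppm and array 2 of 5 ppm, were those lowest in Cyp2c70 in their groups. At 10 ppm this did not hold for Cyp2c37 and Cyp2c50, whose highest array was array 3 (1439 and 650), where Cyp2c70 read 12769, while Cyp2c70 was lowest on array 2. Over deviations from all 19 group means, Cyp2c39 had an r of 0.69 with Cyp2c37, 0.55 with Cyp2c67 and -0.45 with Cyp2c70, and Cyp2c37 had an r of -0.22 with Cyp2c70. Cyp2c39 and Cyp2c67 thus moved together over these pooled deviations, while over the 19 group means their r was -0.77. The intensity of Cyp2c39 spread most in the EE2 groups of 1, 2.5 and 5 ppm at 7 d (SD 390, 272 and 419). Whether the 2 genes moved together within each group was not tested. These r are descriptions over 80 arrays or 19 means that share a normalization.

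Markers of another cell type moved with these arrays. Of the 11 listed macrophage and Kupffer cell markers, which clear particles in the liver sinusoids, 10 were tested and Cd5l was detected on 0 arrays. In EE2 10 ppm livers at 7 d, 9 of the 10 were higher than in feed controls (median change 1.18), among them Lyz2 (1.77) and Vsig4 (1.62). At 1 ppm 1 of 10 was higher, at 2.5 ppm 0 of 10, and at 5 ppm 2 of 10. Over all genes tested, 13.3%, 14.6%, 24.4% and 33.3% passed at 1, 2.5, 5 and 10 ppm, in either direction. The summed intensity of the 11 markers in EE2 livers at 1 ppm was 9853, 3202, 29862 and 4563 on arrays 1 to 4. At 2.5 ppm it was 5886, 16662, 7241 and 2618, and at 5 ppm 4478, 3827, 28550 and 5548. At 10 ppm it was 24523, 5549, 15697 and 23488, against 4566 to 6602 in the 7 d feed controls. The lowest Cyp2c37 and Cyp2c50 arrays of 1 and 10 ppm were those with the highest sums, and array 3 of 5 ppm was low with a high sum. Array 4 of 5 ppm had the lowest Cyp2c37 of that group with a sum inside the control range, and array 2 of 2.5 ppm had a sum of 16662 with Cyp2c37 at 2654. The part of these cells in the Cyp2c changes was not tested. Hepatocyte markers summed to 66782 to 73662 in EE2 10 ppm livers and 72317 to 79125 in feed controls at 7 d, with 0 of 9 past the threshold. Of erythroid markers, genes of red cells and their precursors, 1, 2, 2 and 2 of 5 tested fell at 1, 2.5, 5 and 10 ppm. At 28 d 1 of 5 fell. The shares of all genes tested are those above for 7 d and 28.6% at 28 d, and nothing particular to erythroid markers is drawn from these counts. Alas2, the erythroid enzyme of heme synthesis, averaged 347 in EE2 10 ppm livers and 2198 in feed controls at 7 d (-2.68, adjusted p = 2.3e-15), and 165 in EE2 livers and 2408 in feed controls at 28 d (-3.73, adjusted p = 2.86e-22). Hba-a1, an alpha globin, was also lower at 10 ppm for 7 d (-1.37, adjusted p = 0.0146). The summed erythroid intensity was 2946 to 18394, 2612 to 7792, 1443 to 8585 and 1343 to 10816 in EE2 livers at the 4 doses, low to high, with 10080 to 16343 in the 7 d feed controls. At 28 d it was 2525 to 5702 in EE2 livers and 6596 to 13738 in feed controls. Its part in the Cyp2c changes was not tested.

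At 28 d the members called at 10 ppm after 7 d were called again in the same directions. In EE2 livers, 4 of the 6 members passed the threshold, Cyp2c39 higher and Cyp2c67, Cyp2c37 and Cyp2c50 lower, against 28.6% of all genes tested in either direction. Cyp2c67 read 740, 662, 874 and 904 in EE2 livers, and 3547, 4700.0 and 5380.0 at the lowest, median and highest array in feed controls. It fell by 2.48 (SE 0.17, adjusted p = 2.64e-19 by limma), which is 5.56-fold, and the 2 within-chip changes were -2.38 and -2.37. Cyp2c37 read 656, 658.5, 888 and 306 in EE2 livers, and 2291, 2544 and 3690 in feed controls in the same order. It fell by 2.18 (SE 0.42, adjusted p = 2.83e-05), 4.54-fold, with within-chip changes of -3.37 and -1.78. Cyp2c50 read 299, 374, 378 and 194 in EE2 livers, of which 1 array was detected, and 1109.5, 1337 and 1869 in feed controls. It fell by 2.14 (SE 0.43, adjusted p = 5.97e-05), 4.4-fold, with within-chip changes of -3.07 and -1.96. For these 3 genes every EE2 array was below every control array, as for 12.6% of all genes tested.

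Cyp2c39 stayed higher at 28 d, with 386, 291, 367 and 338 in EE2 livers and 121.7, 169.5 and 222.5 at the lowest, median and highest feed control. The groups did not overlap, as for 13.4% of all genes tested upwards, and the change was 0.95 (SE 0.24, adjusted p = 0.00145), 1.94-fold, with within-chip changes of 0.68 and 1.55. Cyp2c70 read 11573, 12423, 13114 and 9365 in EE2 livers and 10107.5, 11524.5 and 12255 in feed controls, a change of 0.04 (95% confidence interval -0.30 to 0.37). Cyp2c55 averaged 131.2 ± 4.59 (SD, n = 4) in EE2 livers, with 129.2, 136.5 and 133.2 on arrays 1 to 3 and less on array 4, and read 108.8, 172.7 and 185.1 in feed controls. Its change of -0.23 did not pass (adjusted p = 0.114), except without feed control array 2, where it was -0.32 (adjusted p = 0.0166). At 28 d 9 of the 10 macrophage markers were also higher in EE2 livers (median change 1.497), with sums of 15756 to 18004 in EE2 livers and 3532 to 5775.5 in feed controls. Among 9 hepatocyte markers 3 were lower (median change -0.23), with sums of 66943 to 70306 in EE2 livers and 72509 to 80155 in feed controls. Over all genes tested 28.6% passed at 28 d in either direction, and the hepatocyte count is near that share. How often sums of other genes would separate is not given here. The part of either cell type in the Cyp2c changes was not tested.

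**Figure D3:**
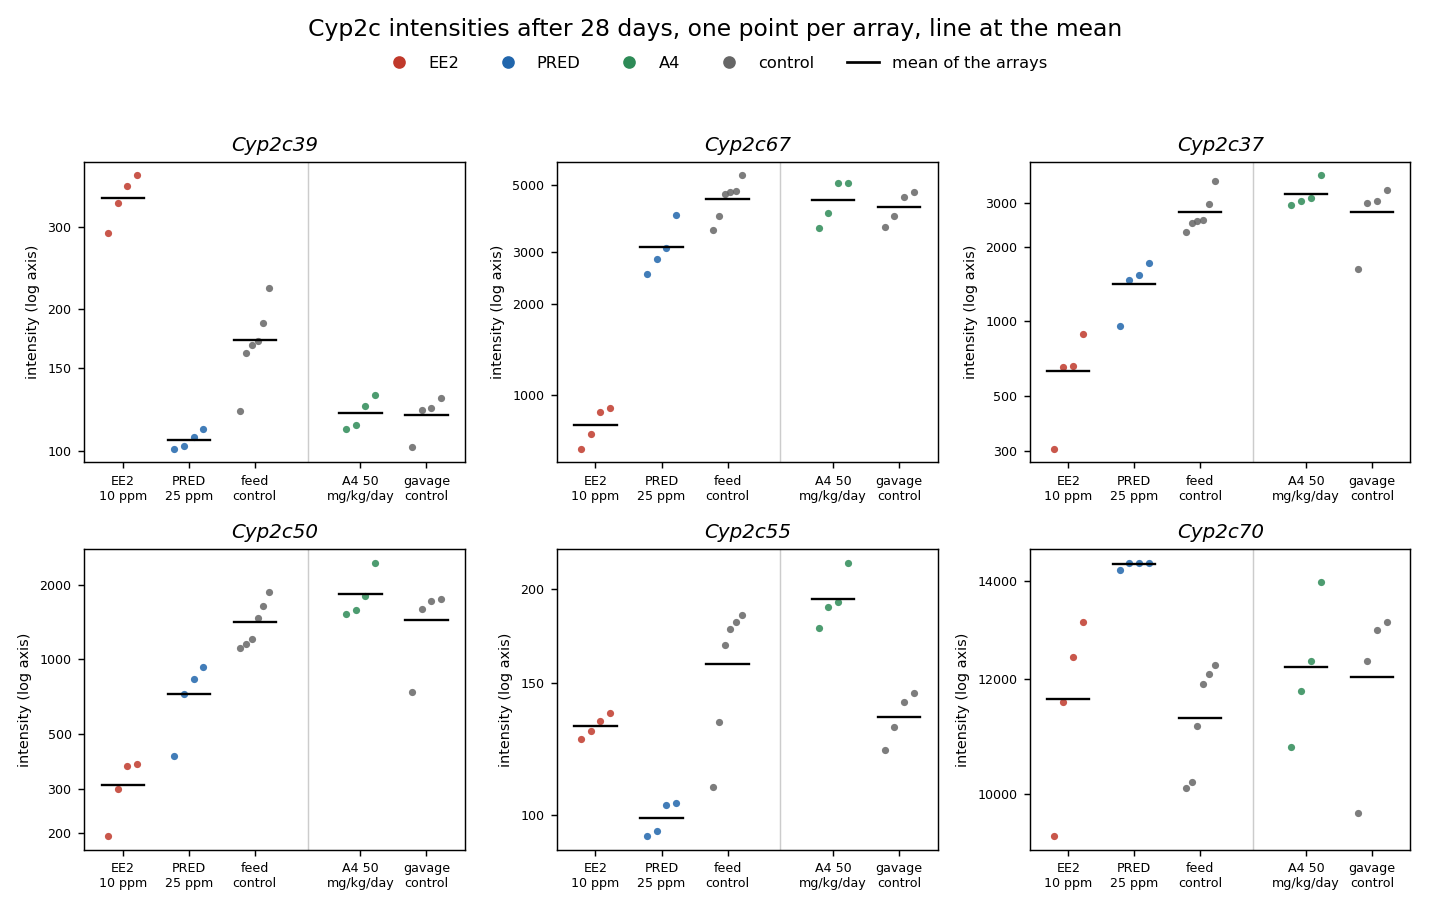
Intensity (linear units on a log axis) of the 6 tested members on every array at 28 d in EE2 10 ppm, PRED 25 ppm and feed control livers and, to their right, A4 50 mg/kg/day and gavage control livers. Points are arrays and black lines are group means. In EE2 livers Cyp2c67, Cyp2c37 and Cyp2c50 lie below all feed controls and Cyp2c39 lies above them. Cyp2c55 is higher on all 4 A4 arrays than on the gavage controls.

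The change under EE2 at 28 d differed from that at 7 d for 1 of the 6 members, against 2.55% of all genes tested. Cyp2c67 averaged 1288 at 7 d and 795 at 28 d in EE2 10 ppm livers, and 3307 and 4503 in feed controls. Its 28 d change minus its 7 d change was -1.11 (SE 0.24, adjusted p = 0.00271). The same difference was -1.10 for Cyp2c37 (adjusted p = 0.354) and -1.05 for Cyp2c50 (adjusted p = 0.402), with standard errors near 0.6, so that a difference of this size could not be told from none in these 2 noisier genes.

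Under PRED, Cyp2c67 and Cyp2c55 passed the threshold, both at 25 ppm. At 1.25, 2.5 and 5 ppm at 7 d, 0 of the 6 members passed the threshold by limma, against 0.0264%, 0% and 0.599% of all genes tested, and 1, 0 and 1 members had an unadjusted p under 0.05. Of the 11352 genes tested, 499, 396 and 1328 had such a p at these doses. These 3 comparisons, and those of EE2, use the same feed controls. At 25 ppm, 1 of 6 passed at 7 d, against 6.01% of all genes tested. It was Cyp2c67, with 3780, 5458, 5202 and 4723 in PRED livers and 2861, 3285 and 3756 at the lowest, median and highest feed control. All 4 PRED arrays were above all controls, as for 4.11% of all genes tested. The change was 0.53 (SE 0.17, adjusted p = 0.0446), 1.44-fold, with within-chip changes of 0.35 and 0.54. The call was lost without feed control array 1, 2 or 3 or PRED array 2, 3 or 4 (adjusted p up to 0.156) and when arrays sharing a number in their names were averaged (0.49, adjusted p = 0.191).

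At 28 d, 2 of 6 members passed the threshold in PRED livers, both lower, against 9.89% of all genes tested in either direction. Cyp2c67 read 2532, 3957, 2837 and 3071 in PRED livers, against 3547 at the lowest feed control, so that 1 array overlapped. The change was -0.54 (SE 0.17, adjusted p = 0.0258), within chips -1.08 and -0.32. It was lost without PRED array 1, 3 or 4 or feed control array 1 or 5 (adjusted p up to 0.135) and with the chip as a block (-0.50, adjusted p = 0.0719). The sign of the change from control thus differed between 7 d and 28 d. The 28 d change minus the 7 d change was -1.07 (SE 0.24, adjusted p = 0.0212), the single such call among the 6 members. Over all genes tested 1.42% passed. PRED livers averaged 4791 at 7 d and 3099 at 28 d, and feed controls 3307 and 4503. The feed controls were higher at 28 d by 0.44 (adjusted p = 0.115 by limma), which enters this difference. Gavage controls at 7 d were above the 7 d feed controls by 0.56 (adjusted p = 0.248). The call of the duration difference was lost without array 1 of PRED 28 d (-0.98, adjusted p = 0.0722) or array 3 or 4 of PRED 7 d (adjusted p = 0.0587 and 0.0515).

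Cyp2c55 was the other. It read 95.18, 93.59, 103.6 and 103 in PRED livers at 28 d, on which it was detected on 0 of 4 arrays, and 108.8, 172.7 and 185.1 at the lowest, median and highest feed control. The groups did not overlap, as for 7.42% of all genes tested downwards. The change was -0.59 (SE 0.11, adjusted p = 7.26e-05), within chips -0.73 and -0.32. As the PRED level is not above background, it was at least 1.45-fold lower there, the feed control mean being set against the lowest detected signal or the probe's own, whichever was higher. Cyp2c55 was also detected on 0 of 4 arrays of PRED 1.25, 5 and 25 ppm at 7 d, where no change passed the threshold (25 ppm, -0.26, adjusted p = 0.164).

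The other members were lower or higher in PRED 28 d livers without passing. The changes were -0.97 for Cyp2c37 (adjusted p = 0.132), -0.98 for Cyp2c50 (adjusted p = 0.138), -0.61 for Cyp2c39 (adjusted p = 0.0957) and 0.35 for Cyp2c70 (adjusted p = 0.186). All 6 members had an unadjusted p under 0.05 there, against 2685 of the 11352 genes tested. With only the 2 groups in the fit, whose own spread was then used, these 4 passed, with adjusted p of 0.00595, 0.0214, 0.0103 and 0.00492 in the same order. The share of all genes that passed in that fit is not given here. Cyp2c37 read 960, 1710, 1530 and 1462 in PRED 28 d livers, all below the lowest feed control of 2291, as for 7.42% of all genes tested. Cyp2c70 read 14239 on 1 array and 14398 on the other 3, all above the highest feed control of 12255, as for 5.58% of all genes tested. Cyp2c50 at 25 ppm for 7 d read 485, 710, 444 and 740 but was detected on 0 of 4 arrays, so the deposited detection p did not follow the signal there. The PRED trend over the 7 d doses passed the threshold for 0 of the 6 members by limma, against 7.31% of all genes tested, with 2 at an unadjusted p under 0.05. Between 25 and 5 ppm of PRED 0 of 6 passed, against 0.247% of all genes tested, with 0 at an unadjusted p under 0.05. Such a p was seen for 2428 of the 11352 genes tested in the PRED trend and for 586 between 25 and 5 ppm. Among macrophage markers 0 of 10 passed under PRED 25 ppm at 7 d (median change -0.63), yet their summed intensity was 2905 to 4144 in PRED livers and 4566 to 6602 in feed controls, without overlap. At 28 d it was 3657 to 4327 in PRED livers and 3532 to 5775.5 in feed controls. Markers of liver endothelium summed to 6497 to 7167 in PRED 25 ppm livers and 4406 to 6275 in feed controls at 7 d, with 1 of 9 past the threshold, higher. Over all genes tested 6.01% passed in PRED 25 ppm livers at 7 d, in either direction. The part of these cells in the PRED values was not tested.

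A4 moved no member past the threshold. At each of the 4 doses for 7 d and at 50 mg/kg/day for 28 d, 0 of the 6 members passed by limma, and 0% of all genes tested did in each. At an unadjusted p under 0.05 there were 1, 0, 0, 0 and 1 members in that order. Among the 11352 genes tested there were 596, 225, 303, 429 and 261. The member at 28 d was Cyp2c55, with 189.2, 177.5, 217.1 and 192.5 in A4 livers and 121.9, 131.1, 145.6 and 141.2 in gavage controls. The 4 A4 arrays lay above the 4 controls, as for 1.29% of all genes tested, and the change was 0.48 (SE 0.12, unadjusted p = 0.000186, adjusted p = 0.703). The A4 change at 28 d minus that at 7 d passed for 0 of 6 members by limma, against 0.00881% of all genes tested, with 1 at an unadjusted p under 0.05, again Cyp2c55 (0.43, adjusted p = 1). For this difference between durations, 420 of the 11352 genes tested had an unadjusted p under 0.05. At 20 mg/kg/day for 7 d array 3 of Cyp2c55 read 269.8, its highest array of that group. For Cyp2c37 at 28 d the A4 change was 0.28 with a 95% confidence interval of -0.63 to 1.18, so that neither a fall nor a rise of moderate size could be detected.

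**Figure D4:**
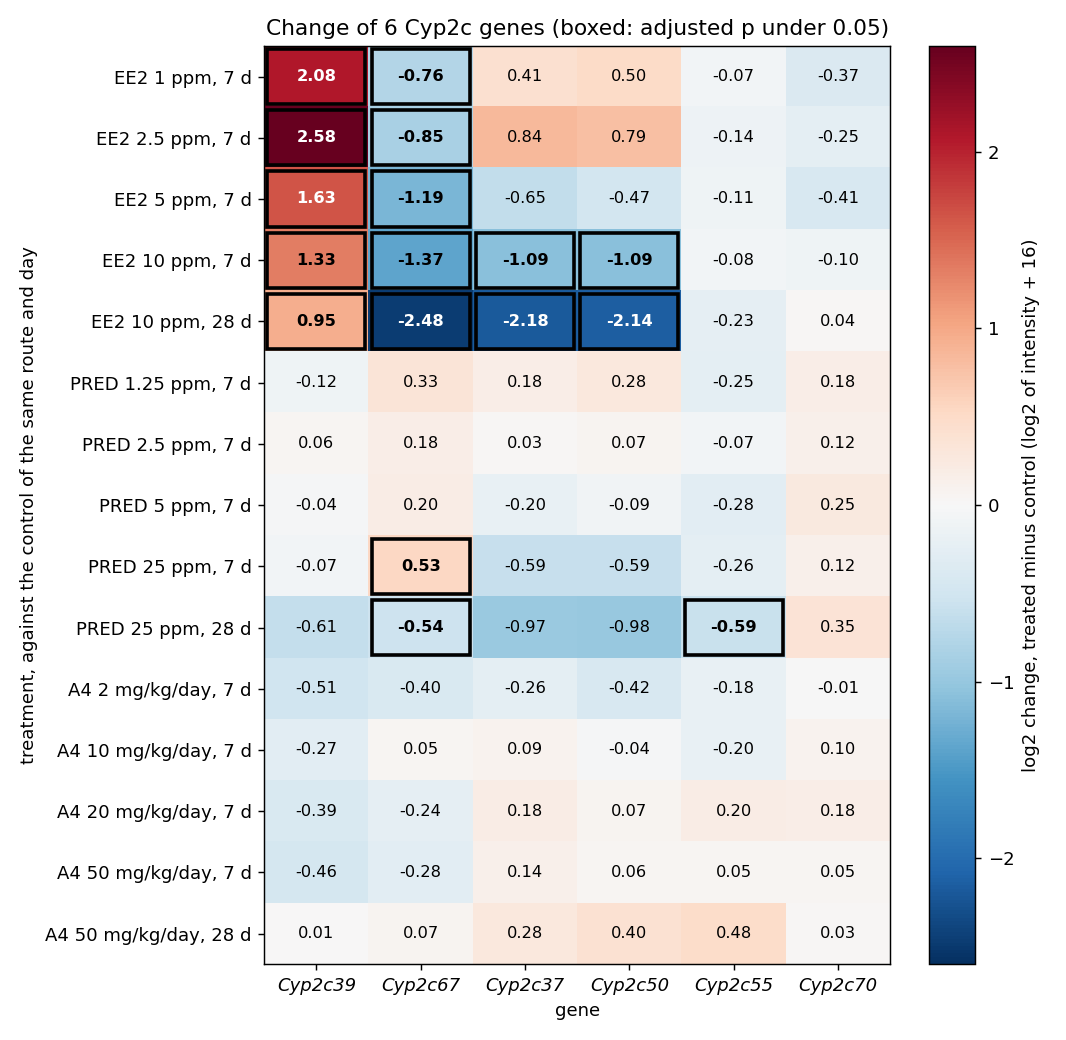
Log2 change, dosed group minus its control, of the 6 tested members (columns) in the 15 comparisons of a dosed group with its control (rows). Colour gives the change and a box marks an adjusted p under 0.05. Boxes lie in the EE2 rows for Cyp2c39, Cyp2c67, Cyp2c37 and Cyp2c50 and in the PRED 25 ppm rows for Cyp2c67 and Cyp2c55.

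EE2 and PRED were both given in feed at 2.5 and 5 ppm for 7 d, which compares them at equal dietary concentration. At 2.5 ppm 2 of 6 members differed, against 9.85% of all genes tested: Cyp2c39 was higher in EE2 than in PRED livers by 2.52 (adjusted p = 6.06e-11) and Cyp2c67 lower, by -1.03 (adjusted p = 4.24e-05). At 5 ppm 3 of 6 differed, against 18% of all genes tested. Cyp2c39 was higher by 1.67 (adjusted p = 2.28e-06), and Cyp2c67 and Cyp2c70 were lower, by -1.39 (adjusted p = 4.43e-08) and -0.66 (adjusted p = 0.00679). The Cyp2c70 call was lost without EE2 array 2, which read 5848 (adjusted p = 0.06). When the limma fit held only the 2 groups compared, further calls were lost. These were Cyp2c67 at 2.5 ppm (adjusted p = 0.0583) and Cyp2c39 and Cyp2c70 at 5 ppm (adjusted p = 0.119 and 0.187). For Cyp2c37 and Cyp2c50 the differences were 0.81 and 0.72 at 2.5 ppm and -0.45 and -0.38 at 5 ppm, with standard errors near 0.46, and did not pass.

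The control groups were also compared with each other, between durations and between routes. What lay behind their differences was not tested. Between 28 d and 7 d feed controls, 0 of 6 members passed by limma, against 1.02% of all genes tested, and 3 had an unadjusted p under 0.05. Such a p was seen for 1868 of the 11352 genes tested. The member nearest the threshold was Cyp2c55, with a change of 0.33 (adjusted p = 0.0733), which passed without feed control array 4 of 7 d or array 2 or 4 of 28 d. Between gavage and feed controls at 7 d, 0 of 6 passed, against 0% of all genes, with 1 at an unadjusted p under 0.05, Cyp2c67 at 0.56 (unadjusted p = 0.00146, adjusted p = 0.248). There 1333 of the 11352 genes tested had an unadjusted p under 0.05.

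Ordered by group mean over all 19 groups, Cyp2c39 had its 5 highest means in the 5 EE2 groups: 821 at 2.5 ppm, 660 at 1 ppm, 496 at 5 ppm, 345 at 28 d and 325 at 10 ppm. The next was 172 in 28 d feed controls, and the lowest was 105.5 in PRED 28 d livers. Cyp2c67 had its 5 lowest means in the EE2 groups, 2007, 1846, 1477, 1288 and 795, and its highest, 5097, in A4 10 mg/kg/day. Cyp2c37 was highest at 3442 in EE2 2.5 ppm and lowest at 627 in EE2 28 d livers. Cyp2c50 was highest at 1841 in A4 28 d livers and lowest at 311 in EE2 28 d livers. Cyp2c55 was highest at 194 in A4 28 d livers and lowest at 96.8 in PRED 5 ppm livers. Cyp2c70 ran between 8856 in EE2 5 ppm and 14358 in PRED 28 d livers.

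The genes whose group means followed a member's most closely were ranked by Pearson r over the 19 group means, as a description, in which the groups farthest from the rest weigh most. For Cyp2c39 they were Sall1 (0.97), Cux2 (0.96) and Cyp4a14 (0.96). Cux2 encodes a transcription factor that is female-biased in mouse liver, and Cyp4a14 is a fatty acid hydroxylase. By rank correlation over the same means Cux2 was at place 1663, Cyp4a14 at 1247 and Sall1 at 444. For Cyp2c67 they were Cyp4f14 (0.97), a P450 that hydroxylates leukotrienes, Il1rap (0.97), a part of the interleukin 1 receptor, and Col18a1 (0.97), a collagen. For Cyp2c37 they were Tfdp2 (0.94), Ivd (0.93) and Acsm5 (0.93), and for Cyp2c50 Tfdp2 (0.95), Acsm5 (0.93) and Sgk2 (0.93). For Cyp2c55 they were Camk1d (0.88), Asah2 (0.86) and Bloc1s5 (0.86). For Cyp2c70 they were C9 (0.93), the last component of complement, Apof (0.91), an apolipoprotein, and Nat8f2 (0.89).

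The lists that follow are set beside the share of all genes past the threshold in either direction, which was 33.3% in EE2 10 ppm livers at 7 d and 28.6% at 28 d, and 6.01% in PRED 25 ppm livers at 7 d and 9.89% at 28 d. They describe the setting of the Cyp2c values, and nothing particular to a list is drawn from its count. Of 7 tested electron donors and epoxide hydrolases, which work with Cyp2c enzymes, 1 was higher and 3 lower in EE2 10 ppm livers at 7 d (median change 0.04, against 0.00 over all genes), led by Cyb5r3, cytochrome b5 reductase (-1.07), and Ephx1, microsomal epoxide hydrolase (1.04). At 28 d 2 were higher and 3 lower, with Ephx2, the soluble epoxide hydrolase that hydrolyses epoxyeicosatrienoic acids, at 1047 in EE2 livers and 2731 in feed controls (-1.39, adjusted p = 3.48e-05). Por, the oxidoreductase that passes electrons to all microsomal P450 enzymes, averaged 486 in EE2 livers and 222 in feed controls at 28 d (1.07, adjusted p = 0.00367). In PRED 25 ppm livers Por was higher at 7 d (1.49, adjusted p = 0.000375) and at 28 d (1.27, adjusted p = 0.00177), and Cyb5b was lower at 7 d (-0.76). Of the 7, 1 was higher and 2 lower under PRED at 7 d, and 1 higher and 3 lower at 28 d, where Ephx1 was lower (-1.48, adjusted p = 2.51e-06).

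Of 12 other P450 enzymes that oxidise arachidonic acid, 2 were higher and 7 lower under EE2 10 ppm at 7 d (median change -0.48), against 33.3% of all genes tested, and 2 higher and 8 lower at 28 d (median -0.79), against 28.6%. Cyp4a12a, the male-biased mouse enzyme that makes 20-HETE, averaged 869 in EE2 livers and 7518 in feed controls at 7 d (-3.33, adjusted p = 2.13e-11). At 28 d it averaged 251 in EE2 livers and 8762 in feed controls (-5.07, adjusted p = 9.47e-19). Cyp4a14, which is induced by fatty acids, averaged 1884 in EE2 livers and 99.97 in feed controls at 7 d (3.91, adjusted p = 2.59e-05). In PRED 25 ppm livers 0 of the 12 passed at 7 d, and 1 was lower at 28 d, Cyp4f14 (-0.66, adjusted p = 0.0228).

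Genes that respond to CAR and PXR, the receptors that induce Cyp2c29 and Cyp2c55 in mice, were in part past the threshold under PRED 25 ppm, where Cyp2c55 did not pass at 7 d and was lower at 28 d. Of 16 tested, 4 were higher and 1 lower in PRED livers at 7 d, against 6.01% of all genes tested, and 5 higher and 2 lower at 28 d, against 9.89%. Cyp2b10, a CAR target, averaged 2148 in PRED livers and 99.2 in feed controls at 7 d (4.19, adjusted p = 2.16e-41), and 2727 in PRED livers and 98.1 in feed controls at 28 d. Cyp3a11, a PXR target, was higher at 7 d (1.44, adjusted p = 0.0186) and Abcc3 lower at 28 d (-1.66, adjusted p = 6.24e-06). In EE2 10 ppm livers, against 33.3% of all genes tested, 1 was higher and 1 lower at 7 d, Abcc3, an exporter of bile acid conjugates (3.10), and Aldh1a1, a retinaldehyde dehydrogenase (-1.14), and 5 were higher and 2 lower at 28 d, led by Cyp2b9 (2.61), a P450 that is female-biased in mouse liver, and Abcc3 (2.36).

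Of 13 genes of bile acid synthesis tested, the pathway to which Cyp2c70 belongs, 1 was higher and 7 lower in EE2 10 ppm livers at 7 d, against 33.3% of all genes tested, and 2 higher and 6 lower at 28 d, against 28.6%. Cyp8b1, the sterol 12-hydroxylase that makes cholic acid, averaged 260 in EE2 livers and 8341 in feed controls at 7 d (-5.18, adjusted p = 7.9e-18). Cyp7a1, the rate-limiting enzyme of the pathway, averaged 175 in EE2 livers and 544 in feed controls (-1.61, adjusted p = 0.0208). In PRED 25 ppm livers 2 were higher and 0 lower at 7 d, with Cyp39a1 at 0.74 and Acox2 at 0.64, against 6.01% of all genes tested, and 3 higher and 2 lower at 28 d, against 9.89%.

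Among 19 tested regulators of liver P450 genes, 7 were higher and 4 lower in EE2 10 ppm livers at 7 d, against 33.3% of all genes tested, and 4 higher and 5 lower at 28 d, against 28.6%. Stat5a, a transcription factor that acts downstream of growth hormone, averaged 630 in EE2 livers and 213 in feed controls at 7 d (adjusted p = 1.85e-10) and was also higher at 28 d (1.41, adjusted p = 7.63e-10). Bcl6, a male-biased repressor in mouse liver, was lower at 7 d (-1.14, adjusted p = 0.0258) and at 28 d (-1.58, adjusted p = 0.00187). Under PRED 25 ppm 1 of the 19 was lower at 7 d, Ghr, the growth hormone receptor (-0.77, adjusted p = 0.00174), and at 28 d 1 was higher, Cebpb (0.82), and 2 lower, led by Ghr (-1.20, adjusted p = 2.46e-07), against 9.89% of all genes tested.

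Pericentral hepatocytes are those near the central vein, where many P450 enzymes are made, and under EE2 10 ppm the calls among their marker genes were all downwards. Of 12 tested, 0 were higher and 7 lower at 10 ppm for 7 d (median change -0.41), led by Cyp1a2 (-2.71) and Gulo, an enzyme of vitamin C synthesis (-1.85), and 0 higher and 9 lower at 28 d (median -0.56), against 33.3% and 28.6% of all genes tested in either direction. Of 11 periportal genes, 2 were higher and 5 lower at 7 d (median -0.14), led by Pigr, which carries IgA into bile (-1.38), and Sds, serine dehydratase (1.19), and 3 higher and 3 lower at 28 d (median 0.18). Under PRED 25 ppm, 1 pericentral gene was higher and 1 lower at 7 d, and 1 higher and 3 lower at 28 d, against 6.01% and 9.89% of all genes tested, led by Oat, ornithine aminotransferase (-1.39). The part of either zone in the Cyp2c changes was not tested.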

How the data were processed

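Liver RNA was isolated by Trizol followed by RNeasy clean-up, made into biotinylated cRNA, per the labels' protocols, and hybridised to Illumina bead arrays. GenomeStudio is named in the submitters' processing notes, with no version. The authors deposited 1 intensity and 1 detection p-value per entry and array. The intensities are linear, the normalization is not stated in the sources used here, and sorted values nearly equal between arrays show that it made the distributions alike. The values of the members in the second deposited table were identical.

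Here 8 control entries were left out of 18138, leaving 18130, and the test took the 11352 genes whose detection p was below 0.05 on 4 or more arrays. log2(intensity + 16) was fitted with limma 3.58.1 in R 4.3.3 as 1 model of 19 groups (61 residual degrees of freedom), with 29 comparisons, Benjamini-Hochberg adjustment within each, and a threshold of 0.05. The fit was tested on simulated data. Confidence intervals are at the 95% level.

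Groups came from the sample labels. Alternatives were the added constant (1 or 64), the filter, repeated quantile normalization, the chip as a block, averaging of arrays that share a number in their names, a fit of only the groups compared, and leaving out each array. Symbols were updated through the RefSeq gene table, and promoter windows are those of RefSeq on GRCm38.p6, searched for fixed letters on both strands. The files name no genome build. The members and gene lists were chosen with earlier results of these data known. Of each list the 2 genes with the largest change past the threshold were named, and for each member the 3 genes of highest Pearson r.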

Additional observations from a re-analysis of the deposited data

Results flagged for a closer look

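Each tested member, and Cyp2c29, was searched in each group of 4 to 6 arrays for an array set apart from the others. Of 133 tests 7 passed the limit, against 6.65 that chance would give. For Cyp2c37, array 3 of PRED 1.25 ppm at 7 d read 3153.6, with the others at 1681.0 to 1849.6, and array 1 of the 28 d gavage controls read 1617.0, with the others at 2992.4 to 3391.5. For Cyp2c50 the same gavage control array read 736.5, with the others at 1592.0 to 1743.9, and array 2 of the 7 d feed controls read 311.1, with the others at 789.6 to 1324.5. For Cyp2c70, array 2 of EE2 1 ppm read 5877.8, with the others at 9584.3 to 10447.8, and array 2 of A4 2 mg/kg/day read 8643.2, with the others at 12591.4 to 13300.8. Array 1 of PRED 25 ppm at 28 d read 14238.7 for Cyp2c70 while the other 3 all read 14398.2, a gap between neighbouring values of the upper end of the scale.

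The change of Cyp2c67 from control differed between durations under 2 treatments. For EE2 10 ppm the 28 d change minus the 7 d change was -1.111 on the log2 scale (adjusted p by limma = 0.00271), both changes being negative. For PRED 25 ppm it was -1.072 (adjusted p = 0.0212), the change being negative at 28 d and positive at 7 d. The feed controls were higher at 28 d than at 7 d by 0.44 (adjusted p = 0.115 by limma), which enters both differences.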

How the results depend on the processing

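Over 174 results of the 6 tested members and 3732 recomputed values, 3648 kept their direction and side of the threshold, 64 fell short of it, 20 newly passed it and 0 past it turned direction; 96 values that were not past the threshold had the other sign. The calls of Cyp2c39 and Cyp2c67 under EE2 against feed controls, and of Cyp2c37 and Cyp2c50 at 28 d, held under all alternatives. The count of members past the threshold moved by over 1.5 times as follows. At EE2 10 ppm, 7 d, it was 4, and 2 with no detection filter, with the chip as a block or with only the groups compared. At PRED 25 ppm, 7 d, it was 1, and 0 with no filter or with arrays sharing a number averaged. At PRED 25 ppm, 28 d, it was 2, and 1 with the chip as a block or with such arrays averaged, and 6 with only the groups compared. With only the groups compared the EE2 trend had 1 and not 4, EE2 against PRED had 1 and not 2 at 2.5 ppm and 1 and not 3 at 5 ppm, and EE2 10 against 1 ppm had 0 and not 3, as also with the chip as a block. The PRED duration difference had 0 and not 1 with such arrays averaged. Leaving out single arrays gave 2 to 4 members at EE2 5 ppm, 2 to 4 at EE2 10 ppm for 7 d, 4 to 5 at EE2 28 d, 0 to 1 at PRED 25 ppm for 7 d, 1 to 2 at PRED 28 d, 3 to 4 for the EE2 trend, 0 to 1 for the PRED duration difference, 2 to 3 for EE2 against PRED at 5 ppm, 0 to 4 for EE2 10 against 1 ppm, and 0 to 1 for feed controls at 28 d against 7 d. Fits of only the groups compared use fewer arrays for the spread; for the other settings the cause was not tested. No paired analysis was possible because the groups compared share fewer than 2 of the numbers in the sample names, whose meaning the labels do not give. Of these numbers 9 recur on 19 arrays, in 10 pairs within a group whose deviations correlated at -0.30 to 0.44. The median r of these pairs was -0.03, against -0.35 for the other pairs within a group. Groups with such a repeat include the feed controls at both times, EE2 and PRED at 28 d and PRED 25 ppm at 7 d. The main fit counts such arrays as independent, and whether they are was not tested. Cyp2c38, Cyp2c40, Cyp2c65 and Cyp2c68 were detected on 0 of 80 arrays, which leaves no change in them measurable.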
